A study of Mus musculus with 16 samples.

Results

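The proteasome genes of the mouse hypothalamus were followed in 4 groups of 4 libraries. Members were the protein-coding genes whose symbol begins with Psma, Psmb, Psmc, Psmd, Psme, Psmf or Psmg and a digit and which reached more than 1 CPM (counts scaled to a common library size) in any library. Of 50 such genes 47 passed, out of 15808 genes that passed the same limit. The groups were ASIC1a-/- mice taken at Zeitgeber time 13 (ZT13, 13 h after lights on, in the dark phase), WT mice at ZT13, ASIC1a-/- mice at ZT1 (1 h after lights on) and WT mice at ZT1. All were male C57BL/6 mice aged 3 months, kept under a light-dark cycle, and each library came from the hypothalamus of another mouse. ASIC1a is an acid-sensing ion channel of neurons and was deleted globally, so every cell type lacked it throughout life. The comparisons ask whether its loss changes hypothalamic transcripts and whether transcripts differ between early day and early night.

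The proteasome degrades proteins that carry a ubiquitin chain. Its core particle is a barrel of stacked rings: the outer rings hold the alpha subunits (Psma genes), which gate the entrance, and the inner rings hold the beta subunits (Psmb genes), some of which carry the proteolytic sites. A regulatory particle caps the barrel. Its ATPases (Psmc genes) unfold the substrate, and its other subunits (Psmd genes) recognise ubiquitin and cut it off. Interferon replaces the catalytic subunits Psmb5, Psmb6 and Psmb7 by Psmb8, Psmb9 and Psmb10 to form the immunoproteasome, whose products suit antigen presentation. In the brain, the standard proteasome takes part in synaptic protein turnover, and clock proteins are among its substrates.

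The 3 genes with such a symbol that stayed below the limit were Psma8, the alpha subunit of testis, Psmb11, the catalytic subunit of thymus, and Psme2b. Their highest values were 0.389, 0.164 and 0.981 CPM. The members nearest to the limit from above were Psmb9, with at most 1.53 CPM (for this limit by total count alone), and Psmc3ip, with at most 1.57 CPM. Psmc3ip shares the symbol only, since its product acts in meiotic recombination, and it is counted among the 47 but in no proteasome group. The other 46 encode 7 alpha subunits, 4 structural beta subunits, 3 standard catalytic subunits, 3 immunoproteasome subunits, 6 ATPases, 11 other subunits of the regulatory particle, 5 activators or inhibitors and 7 assembly chaperones.

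The libraries held 34888522 to 42326259 counts each. Asic1 had 64.9 to 71.9 CPM in the 8 ASIC1a-/- libraries and 97.1 to 106 CPM in the 8 WT libraries, without overlap; these counts sum all transcripts of the gene and do not measure ASIC1a alone. Neuronal markers (6 genes, with summed levels of 3219 to 3451 TPM) and hypothalamic markers (8 genes, 3162 to 4538 TPM) were present in all libraries, as the labelled tissue requires. Summed levels of 9 meningeal markers were 786 to 3201 TPM in ASIC1a-/- and 776 to 1178 TPM in WT at ZT13, and 941 to 4986 TPM in ASIC1a-/- and 751 to 941 TPM in WT at ZT1. ASIC1a-/- ZT1 replicate 4 and ASIC1a-/- ZT13 replicate 2 stood apart in these markers. In bulk tissue, fewer cells of a type and less RNA per cell cannot be told apart.

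The standard subunits lay within a narrow span of levels, and the immunoproteasome genes Psmb8 and Psmb9 were the lowest proteasome genes. Levels are compared between genes in TPM, a unit that divides counts by transcript length. The 31 subunits of the standard proteasome had mean levels over the 16 libraries of 72.5 TPM (Psmd11, a scaffold of the lid) to 284 TPM (Psmc5, an ATPase), with a median of 139 TPM and a span of 3.91-fold. Alpha subunits lay between 108 TPM (Psma5) and 199.7 TPM (Psma6), and structural beta subunits between 134 TPM (Psmb2) and 229 TPM (Psmb4). Subunits that occupy 1 position each in the same complex therefore had transcript levels within that span. Assembly chaperones, which help the rings and the base form but leave the finished particle, were lower, from 14.7 TPM (Psmg4) to 59.4 TPM (Psmd5).

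Among the activators, Psme1 and Psme2, which form one interferon-inducible cap, had 123 ± 5.12 and 80.5 ± 5.20 TPM (SD, n = 16). Psme3, which forms a nuclear cap on its own, had 111 ± 4.34 TPM, and Psme4, a large single-chain activator, had 18.004 ± 1.42 TPM. Psmf1, known as an inhibitor of the core particle in vitro, had 42.04 ± 2.52 TPM. The order of levels was therefore Psme1, Psme3, Psme2, Psmf1 and Psme4, and the ranges over libraries of Psme1 (116 to 133 TPM) and Psme3 (101 to 117 TPM) overlapped narrowly.

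**Figure D1:**
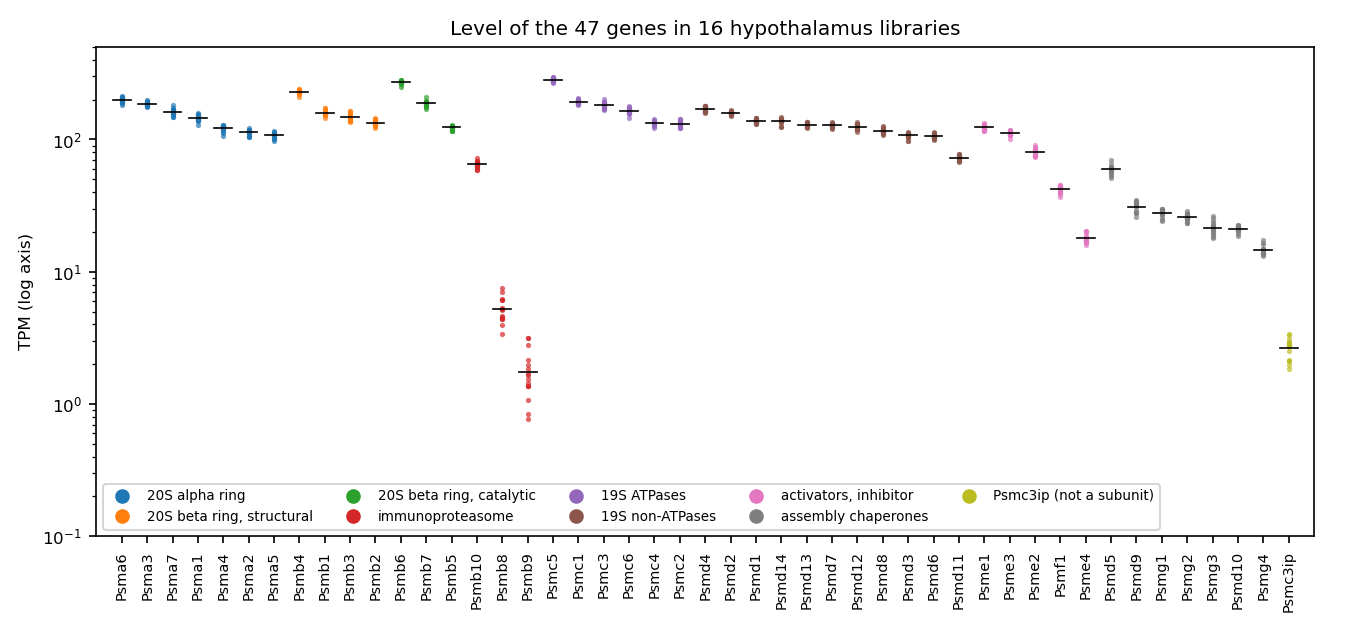
Levels of the 47 genes in TPM on a logarithmic axis, with 1 point for each of the 16 libraries and a bar at the mean, coloured by role in the proteasome. The 31 standard subunits lie between means of 72.5 and 284 TPM, while Psmb8 and Psmb9 lie at 5.23 and 1.76 TPM.

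The catalytic subunits and their interferon-induced counterparts differed widely in level. Psmb5, which carries the chymotrypsin-like site (chr14:54614119-54618022 on GRCm38, as all positions here), had 126, 122, 129 and 126 TPM in ASIC1a-/- and 117, 126, 122 and 127 TPM in WT at ZT13. At ZT1 it had 123, 127, 127 and 115 TPM in ASIC1a-/- and 119.5, 124, 116 and 126 TPM in WT. All 16 values lay between 115 and 129 TPM, and the groups overlapped. Its counterpart Psmb8 (chr17:34197721-34201454) had 5.36, 7.60, 4.42 and 3.99 TPM in ASIC1a-/- and 6.14, 3.39, 4.37 and 6.08 TPM in WT at ZT13. At ZT1 Psmb8 had 4.44, 4.54, 5.27 and 6.17 TPM in ASIC1a-/- and 5.12, 5.21, 6.99 and 4.59 TPM in WT, again with overlapping groups. Psmb8 made up 3.07% to 5.86% of the sum of both genes in ASIC1a-/- and 2.62% to 5.004% in WT at ZT13, and 3.45% to 5.09% in ASIC1a-/- and 3.52% to 5.68% in WT at ZT1.

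Psmb6, with the caspase-like site (chr11:70525367-70527858), had 275, 264, 277 and 276 TPM in ASIC1a-/- and 278, 282, 273 and 277 TPM in WT at ZT13. At ZT1 it had 279, 276, 268 and 251 TPM in ASIC1a-/- and 276, 266, 263 and 266 TPM in WT. It was the most abundant of the 3 standard catalytic subunits in every library. Psmb9 (chr17:34181987-34187764), its counterpart, had 1.85, 1.54, 0.840 and 1.68 TPM in ASIC1a-/- and 3.13, 1.66, 1.08 and 2.14 TPM in WT at ZT13. At ZT1 Psmb9 had 2.81, 1.97, 1.36 and 3.15 TPM in ASIC1a-/- and 1.38, 1.45, 1.36 and 0.770 TPM in WT. These rest on 18 to 55 counts a library, and Psmb9 made up 0.289% to 1.24% of the pair over all libraries. Exons of Psmb9 share 212 bp with Tap1, the peptide transporter gene on the opposite strand, whose mean was 3.62 TPM, and reads there may have been split between them.

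Psmb7, with the trypsin-like site (chr2:38588036-38644087), had 196, 192, 189.9 and 209.5 TPM in ASIC1a-/- and 185, 197, 190.5 and 188 TPM in WT at ZT13. At ZT1 it had 187, 188, 178 and 179 TPM in ASIC1a-/- and 190.4, 180.0, 176 and 169 TPM in WT. Psmb10 (chr8:105935735-105938444), its counterpart, had 63.4, 68.8, 67.2 and 66.5 TPM in ASIC1a-/- and 67.7, 63.7, 73.04 and 68.9 TPM in WT at ZT13. It stood far above the other immunoproteasome genes. At ZT1 it had 63.04, 58.5, 62.2 and 59.1 TPM in ASIC1a-/- and 64.5, 60.5, 61.8 and 66.6 TPM in WT. Psmb10 made up 24.1% to 26.4% of the pair in ASIC1a-/- and 24.4% to 27.7% in WT at ZT13, and 23.7% to 25.9% in ASIC1a-/- and 25.2% to 28.3% in WT at ZT1. Both genes lay higher at ZT13 than at ZT1 in every ASIC1a-/- library on the TPM scale, while their CPM overlapped and neither was called. On the log2(TPM + 1) scale the median of all genes was also 0.030 higher at ZT13 in ASIC1a-/-. The share of all genes that separate in TPM was not computed. The share ranges of the 3 pairs did not overlap each other, and within each pair the 4 groups overlapped.

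**Figure D2:**
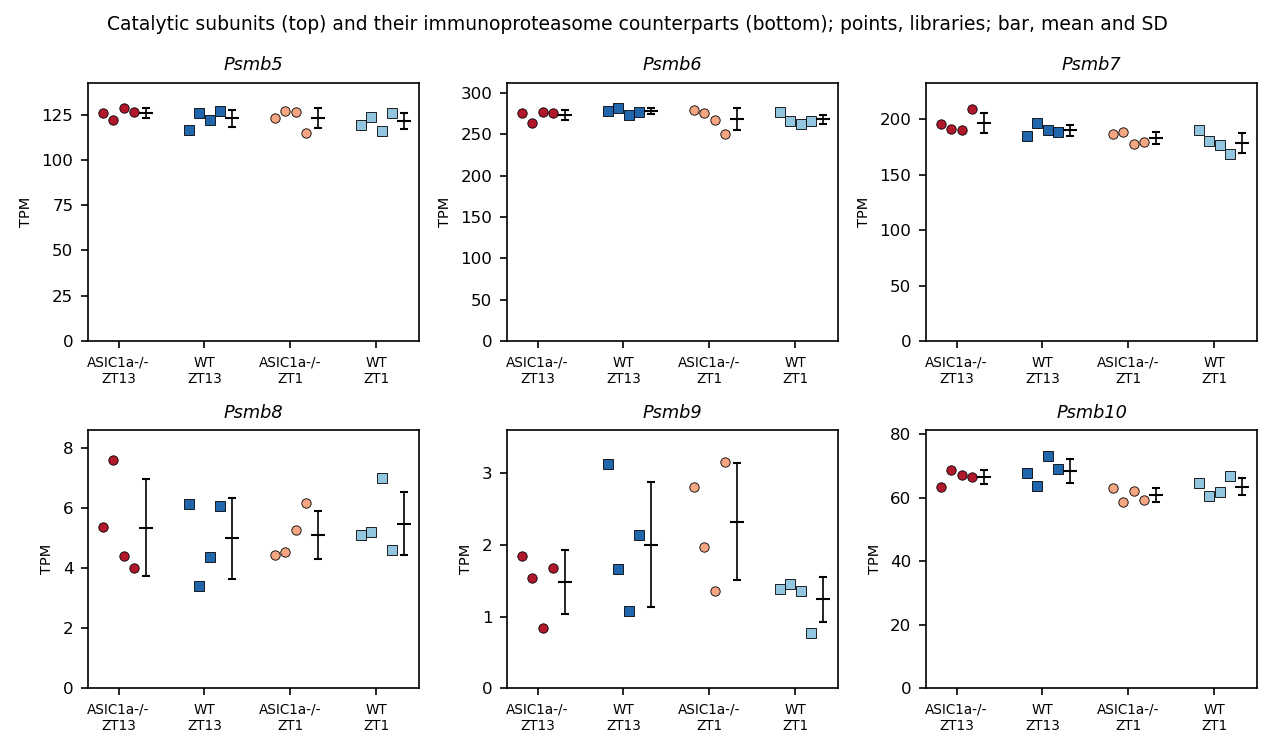
TPM of the standard catalytic subunits (upper row) and of the immunoproteasome subunits that replace them (lower row), by group, with 1 point for each library and the mean and SD (n = 4) beside them. Every panel starts at 0, and Psmb8 and Psmb9 are lowest. The 4 groups overlap except for Psmb7 and Psmb10, where all ASIC1a-/- ZT13 libraries lie above all ASIC1a-/- ZT1 libraries, and Psmb10 in WT ZT13, which also lies above ASIC1a-/- ZT1. The share of all genes that separate so in TPM was not computed.

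Promoters of the genes are of interest because the transcription factor Nfe2l1 is known to raise proteasome genes together through antioxidant response elements. RefSeq promoters (GRCm38.p6, from 250 bases before each start to shortly after it) were matched by symbol for 40 of the 47 members. The core TGACNNNGC, searched on both strands, was in promoters of 6 of these 40 genes (15%), against 14.0% of 27025 genes with a promoter and 16.5% of the 11657 tested genes with one. Its variant TGAGNNNGC was in 13 of 40 (32.5%), against 19.8% and 23.0%. The motifs differ at a fixed base, so no match of one overlaps a match of the other at the same place and strand. Genes with TGACNNNGC were Psmb5, Psmb6, Psmc6, Psmd9, Psmd12 and Psme4. A match is a description of letters only.

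Psmb5 and Psmb6 are shown as catalytic genes that hold the core close to the start. Psma1, Psmc2, Psmd11 and Psmd14 are shown because they passed the test between times of day in WT hypothalamus. Psmb2 and Psmc3 passed it too but had no promoter matched by symbol. Psma7, called in ASIC1a-/- only, is not shown. It holds neither motif in the 150 bases before its start and has the variant at base 42 after it (TGAGTGTGC). Each sequence is the 150 bases before the RefSeq start, 5′ to 3′ on the gene's strand, with a match of either motif in capitals. The windows are chr14:54617996-54618145, minus strand for Psmb5, chr11:70525207-70525356, plus strand for Psmb6, chr7:114276117-114276266, minus strand for Psma1, chr5:21785125-21785274, plus strand for the upstream start of Psmc2, chr11:80428465-80428614, plus strand for Psmd11 and chr2:61711544-61711693, plus strand for Psmd14.
Psmb5: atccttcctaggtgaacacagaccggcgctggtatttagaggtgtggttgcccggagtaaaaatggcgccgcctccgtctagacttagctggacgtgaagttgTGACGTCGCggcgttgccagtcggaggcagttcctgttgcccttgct
Psmb6: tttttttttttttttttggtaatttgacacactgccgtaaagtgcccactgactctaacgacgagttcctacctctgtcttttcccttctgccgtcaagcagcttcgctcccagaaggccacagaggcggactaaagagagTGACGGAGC
Psma1: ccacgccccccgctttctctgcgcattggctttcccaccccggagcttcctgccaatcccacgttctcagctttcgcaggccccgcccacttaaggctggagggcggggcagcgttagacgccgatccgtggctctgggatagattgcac
Psmc2: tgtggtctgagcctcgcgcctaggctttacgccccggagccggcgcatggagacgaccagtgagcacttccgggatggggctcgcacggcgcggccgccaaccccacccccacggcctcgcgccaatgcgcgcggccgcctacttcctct
Psmd11: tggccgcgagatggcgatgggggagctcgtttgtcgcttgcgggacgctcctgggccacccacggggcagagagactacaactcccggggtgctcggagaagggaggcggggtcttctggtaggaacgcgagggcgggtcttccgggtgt
Psmd14: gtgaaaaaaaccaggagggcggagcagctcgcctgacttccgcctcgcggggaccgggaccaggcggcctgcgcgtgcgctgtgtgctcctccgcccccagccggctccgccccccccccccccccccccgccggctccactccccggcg
The match lies 47 bases before the start in Psmb5 (TGACGTCGC) and 9 bases before it in Psmb6 (TGACGGAGC). None of the 4 others holds either motif in these 150 bases. A second start of Psmc2 has the variant 134 bases upstream (TGAGGGAGC). Neither Psmb5 nor Psmb6 passed the test between times in either genotype.

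Loss of ASIC1a was not accompanied by a change in any proteasome gene that passed the test. At ZT13, 0 of 47 members were called at an adjusted p under 0.05 by edgeR's quasi-likelihood test, where 0.101% of all genes tested were called. At ZT1, 0 of 47 were called, against 0.0127% of all genes, and averaged over both times 0 of 47, against 0.0633%. DESeq2 also called 0 in each of these comparisons. At an unadjusted p under 0.05 there was 1 member in each comparison (2.13%), where all genes had 3.74% at ZT13, 7.00% at ZT1 and 6.80% averaged over times.

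The members' median log2 fold change of ASIC1a-/- over WT was -0.005 at ZT13, with 20 of 47 above 0, and 0.025 at ZT1, with 36 of 47 above 0. The median of all genes was 0.000 in both, with 7909 and 7913 of 15808 genes above 0. The signs turned on the TPM scale, where the medians of all genes moved too. With limma on log2(TPM + 1), 29 of 47 members were above 0 at ZT13 (median 0.009, all genes 0.009) and 21 of 47 at ZT1 (median -0.004, all genes -0.025). At ZT1 the members' median thus lay above that of all genes on both scales. The ZT1 comparison uses the same 4 WT ZT1 libraries as the comparison of times in WT, so these comparisons are not separate evidence. The 95% confidence interval lay within ±0.2 on the log2 scale for 40 of 47 members at ZT13 and for 41 of 47 at ZT1. The exceptions at ZT13 were Psmb8, Psmb9, Psmc3ip, Psmg1, Psmg2, Psmg3 and Psmg4, and at ZT1 the same ones apart from Psmg1.

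The smallest p at ZT13 belonged to Psmd8, a lid subunit (chr7:29174188-29180701), which had 75.98, 72.9, 73.2 and 74.5 CPM in ASIC1a-/- and 71.6, 73.4, 69.2 and 67.6 CPM in WT. The groups overlapped only between the highest WT library and the lower ASIC1a-/- libraries (log2 fold change 0.07 ± 0.034 (SE), adjusted p = 0.999712, unadjusted p = 0.0434 in edgeR). Psmg1 and Psmg2, which pair to guide assembly of the alpha ring, came next. Psmg1 had 12.7, 11.6, 13.1 and 12.2 CPM in ASIC1a-/- and 12.03, 10.97, 11.8 and 10.8 CPM in WT at ZT13 (log2 fold change 0.12, interval -0.021 to 0.260). Psmg2 had 11.9, 12.5, 12.3 and 13.01 CPM in ASIC1a-/- and 11.1, 11.5, 11.6 and 12.5 CPM in WT at ZT13 (log2 fold change 0.091, interval -0.034 to 0.216). Both genes overlapped between genotypes.

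At ZT1 the smallest p belonged to Psmd9, a chaperone of the ATPase base (chr5:123169413-123250131), with 29.2, 29.7, 26.5 and 27.3 CPM in ASIC1a-/- and 27.4, 25.6, 25.9 and 25.8 CPM in WT (log2 fold change 0.11 ± 0.043 (SE), adjusted p = 0.68). The groups overlapped by 1 WT library and 2 ASIC1a-/- libraries. Exons of Psmd9 share 1849 bp, 25.5% of their length, with the noncoding gene Gm26745 on the opposite strand. Psma1, an alpha subunit, had 76.4, 80.9, 75.4 and 75.5 CPM in ASIC1a-/- and 75.8, 75.4, 72.1 and 69.1 CPM in WT at ZT1 (log2 fold change 0.076, interval -0.004 to 0.155). The highest WT library lay between the ASIC1a-/- libraries. The third was Psmb9, with 1.37, 0.980, 0.946 and 1.54 CPM in ASIC1a-/- and 0.726, 1.04, 1.01 and 0.513 CPM in WT at ZT1 (log2 fold change 0.55, interval -0.045 to 1.148). Psmb9 is high in immune cells. Psmb8 and Psmb10, the other immunoproteasome genes, had log2 fold changes of -0.012 and 0.006 at ZT1. The highest Psmb9 value was that of ASIC1a-/- ZT1 replicate 4, a library high in meningeal markers. The 11 microglial markers had summed levels of 336 to 364 TPM in ASIC1a-/- and 330 to 345 TPM in WT at ZT1. Of these 11, 7 had an unadjusted p under 0.05 in edgeR, against 7.00% of all genes, and 0 were called. The part of microglia in the Psmb9 value was not tested.

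Averaged over times, Psmg2 had the smallest p (log2 fold change 0.10 ± 0.042, SE, adjusted p = 0.721 in edgeR). At ZT1 it had 12.1, 13.6, 13.4 and 11.95 CPM in ASIC1a-/- and 12.1, 12.5, 10.9 and 11.8 CPM in WT, so the mean was higher in ASIC1a-/- at both times and the libraries overlapped at both. Psmd8 followed, with 74.98, 75.98, 73.3 and 69.8 CPM in ASIC1a-/- and 74.4, 71.8, 70.1 and 74.7 CPM in WT at ZT1 and a log2 fold change averaged over times of 0.045 (interval -0.006 to 0.095). Psmd13, a lid subunit, had 72.4, 71.1, 70.2 and 73.9 CPM in ASIC1a-/- and 69.2, 72.2, 71.5 and 69.5 CPM in WT at ZT13. At ZT1 Psmd13 had 72.3, 71.6, 70.4 and 68.5 CPM in ASIC1a-/- and 70.6, 69.6, 68.1 and 67.5 CPM in WT (averaged log2 fold change 0.031, interval -0.011 to 0.073). The genotypes overlapped at both times. Of the catalytic subunits, the averaged log2 fold changes were 0.038 for Psmb5, -0.002 for Psmb6 and 0.049 for Psmb7, and none passed the test.

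**Figure D3:**
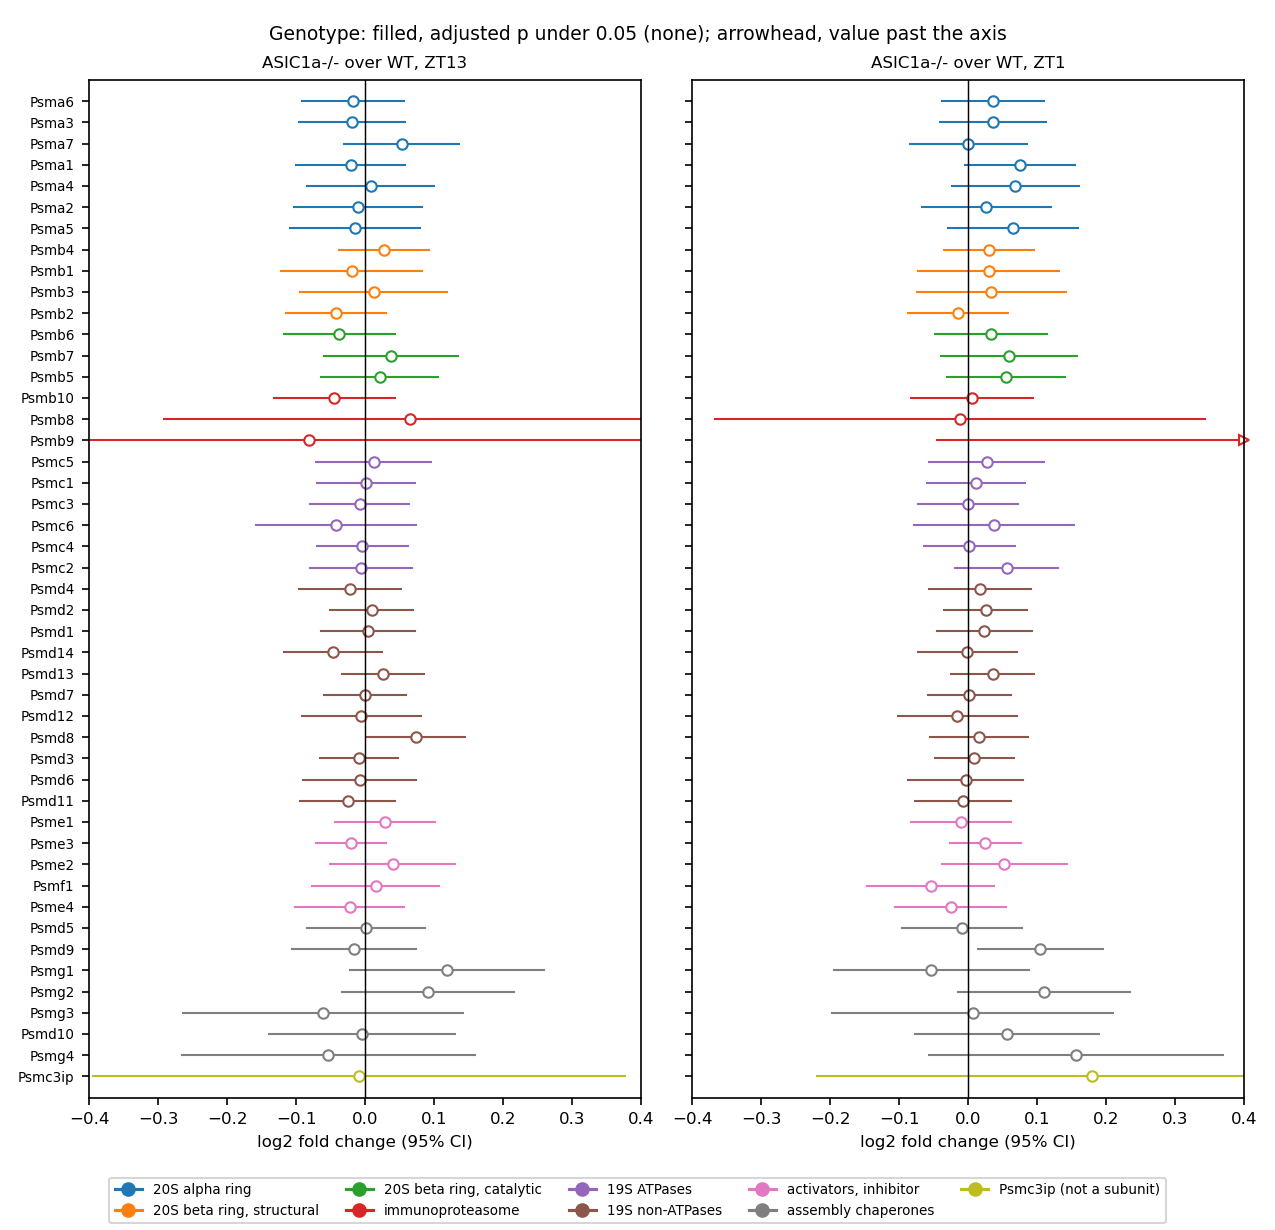
Log2 fold change of ASIC1a-/- over WT with its 95% confidence interval for each of the 47 genes at ZT13 (left) and ZT1 (right), ordered by role and mean level. No symbol is filled, since 0 of 47 passed an adjusted p of 0.05, and intervals widen for Psmb8, Psmb9 and Psmc3ip, which have the fewest counts; Psmb9 at ZT1 (0.55) lies past the axis.

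Small increases of standard subunits at ZT13 over ZT1 passed the test for 2 of 47 members in ASIC1a-/- hypothalamus and for 6 of 47 in WT hypothalamus. No member was called lower in either. In ASIC1a-/- mice the genes were Psma7 and Psmc3, and in WT mice Psma1, Psmb2, Psmc2, Psmc3, Psmd11 and Psmd14. Called members rose by 7.31% to 9.81%. The share called higher was 4.26% in ASIC1a-/-, where 6.72% of all genes were called higher and 4.62% lower, and 12.8% in WT, where 7.52% of all genes were called higher and 5.76% lower. The ASIC1a-/- share lay below its background and the WT share above it. Calls were few, and the count changed with single libraries.

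The direction was shared more widely than the calls. In ASIC1a-/- 37 of 47 members (78.7%) had a log2 fold change above 0, with a median of 0.047, where 47.6% of all genes were above 0 and their median was -0.006. In WT 41 of 47 (87.2%) were above 0, with a median of 0.072, where 49.2% of all genes were above 0 and their median was -0.003. At an unadjusted p under 0.05, 6 members (12.8%) were higher in ASIC1a-/-, against 14.0% of all genes, and 18 members (38.3%) were higher in WT, against 14.2%. Every ZT13 library lay above every ZT1 library for 2 members in ASIC1a-/- (4.26%, against 8.83% of all genes) and for 9 in WT (19.1%, against 9.63%). The 2 were Psmd3 and Psmd11, and the 9 were Psma1, Psma4, Psmb2, Psmc2, Psmc3, Psmd4, Psmd11, Psmd14 and Psme4. Psmd10, an assembly chaperone on chromosome X, lay lower in every ASIC1a-/- ZT13 library than in every ASIC1a-/- ZT1 library (log2 fold change -0.12, adjusted p = 0.229 in edgeR). It was the only member to do so, and the share of all genes that lay lower was not computed. Members of 1 complex share the same libraries and are not independent observations.

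By role, all 7 alpha subunits were above 0 in both genotypes, with medians of 0.038 in ASIC1a-/- and 0.088 in WT, and 1 was called in each. The 4 structural beta subunits were also all above 0, with medians of 0.060 in ASIC1a-/- and 0.085 in WT, and 1 was called, in WT. Of the 6 ATPases, 4 were above 0 in ASIC1a-/- and 6 in WT, with 1 and 2 called. The 11 other subunits of the regulatory particle were above 0 in 11 cases in ASIC1a-/- and in 10 in WT, Psmd8 being the exception, and 2 were called, both in WT. The 3 standard catalytic subunits had medians of -0.014 in ASIC1a-/- and 0.056 in WT, and none was called. The chaperones were split, with 4 of 7 above 0 in each genotype and none called.

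**Figure D4:**
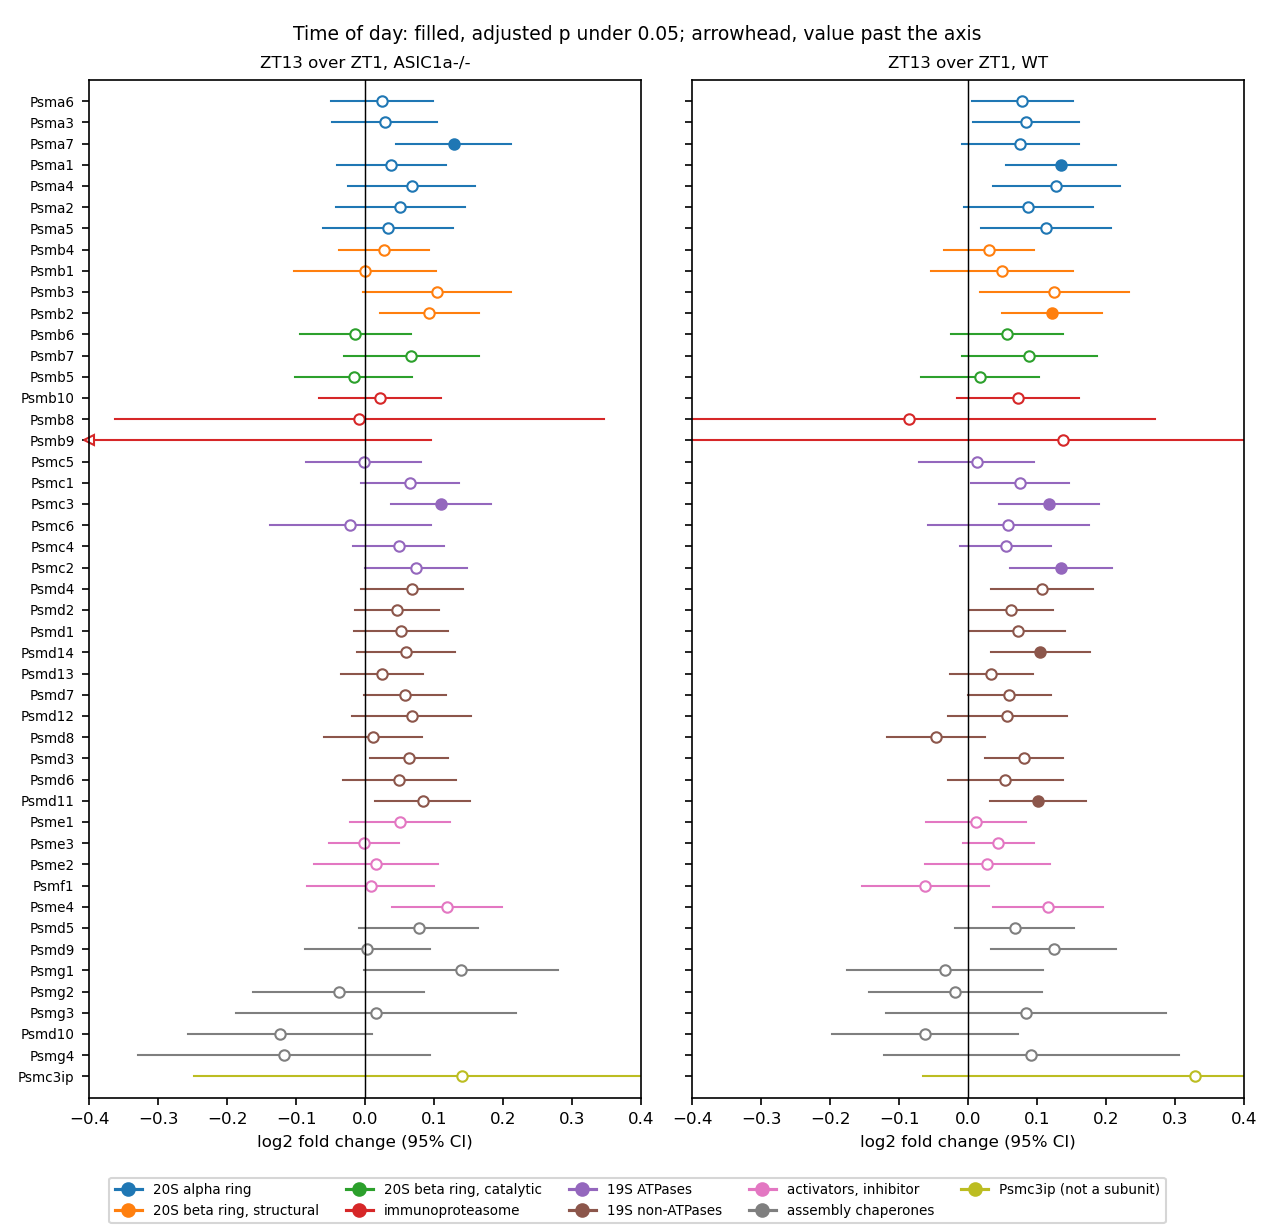
Log2 fold change of ZT13 over ZT1 with its 95% confidence interval for each of the 47 genes in ASIC1a-/- (left) and WT (right) hypothalamus, ordered by role and mean level. Filled symbols passed an adjusted p of 0.05 (2 genes on the left, 6 on the right), most open symbols also lie right of 0, and Psmb9 in ASIC1a-/- (-0.49) lies past the axis.

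Psmc3, an ATPase of the base (chr2:91054009-91066369), was the gene called in both genotypes. It had 125, 115, 119 and 125 CPM at ZT13 and 110.0, 118, 111 and 109.5 CPM at ZT1 in ASIC1a-/- (log2 fold change 0.11 ± 0.034 (SE), adjusted p = 0.0449). In WT it had 121, 125, 123 and 117 CPM at ZT13 and 116, 114, 108 and 109 CPM at ZT1 (log2 fold change 0.12 ± 0.034 (SE), adjusted p = 0.0297). The WT times did not overlap, with the lowest ZT13 library close to the highest ZT1 library, while in ASIC1a-/- 1 ZT1 library exceeded 1 ZT13 library. Exons of Psmc3 share 215 bp with Slc39a13 on the opposite strand, which had a mean of 22.8 TPM against 182 TPM for Psmc3.

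Psma7, an alpha subunit (chr2:180036374-180042433), had 70.9, 60.9, 66.1 and 67.5 CPM at ZT13 and 61.6, 59.9, 61.1 and 60.3 CPM at ZT1 in ASIC1a-/- (log2 fold change 0.13 ± 0.040 (SE), adjusted p = 0.0448). The replicate 2 library at ZT13 lay within the ZT1 range and the other 3 lay above it. In WT, Psma7 had 64.8, 62.9, 65.1 and 63.1 CPM at ZT13 and 63.9, 61.2, 57.6 and 60.1 CPM at ZT1, with overlap (log2 fold change 0.076, interval -0.008 to 0.160).

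Psmc2, another ATPase (chr5:21785283-21803787), had the smallest adjusted p in WT. It had 112, 118, 119.8 and 111 CPM at ZT13 and 111, 103, 101.7 and 104 CPM at ZT1 in WT (log2 fold change 0.13 ± 0.035 (SE), adjusted p = 0.0169). In ASIC1a-/- it had 120.0, 109, 112 and 118 CPM at ZT13 and 108, 112, 109 and 108 CPM at ZT1 (log2 fold change 0.074, interval -0.000172 to 0.148). The WT times did not overlap, though replicate 4 at ZT13 lay just above replicate 1 at ZT1, and the ASIC1a-/- times overlapped.

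Psma1 (chr7:114264606-114276118) had 77.1, 83.3, 81.3 and 79.3 CPM at ZT13 and 75.8, 75.4, 72.1 and 69.1 CPM at ZT1 in WT (log2 fold change 0.13 ± 0.038 (SE), adjusted p = 0.0254). In ASIC1a-/- it had 79.1, 76.8, 76.9 and 83.7 CPM at ZT13 and 76.4, 80.9, 75.4 and 75.5 CPM at ZT1 (log2 fold change 0.038, interval -0.041 to 0.118). Times were separate in WT and overlapped in ASIC1a-/-. Psmb2, a structural beta subunit (chr4:126677630-126709714), had 52.1, 51.4, 52.7 and 49.6 CPM at ZT13 and 47.9, 46.6, 47.7 and 47.04 CPM at ZT1 in WT (log2 fold change 0.12 ± 0.034 (SE), adjusted p = 0.0257). In ASIC1a-/- Psmb2 had 49.3, 47.4, 50.5 and 52.8 CPM at ZT13 and 47.004, 46.6, 45.5 and 48.3 CPM at ZT1 (log2 fold change 0.093, interval 0.021 to 0.166). Its WT ZT1 libraries were the most alike, and only ASIC1a-/- ZT13 replicate 2 fell within the ASIC1a-/- ZT1 range.

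Psmd11, which holds the lid against the base (chr11:80428615-80473248), had 67.1, 70.7, 69.9 and 67.5 CPM at ZT13 and 64.9, 65.5, 64.9 and 61.1 CPM at ZT1 in WT (log2 fold change 0.10 ± 0.033 (SE), adjusted p = 0.0491). In ASIC1a-/- it had 65.7, 65.1, 69.8 and 69.8 CPM at ZT13 and 62.8, 65.1, 64.4 and 62.9 CPM at ZT1 (log2 fold change 0.084, interval 0.014 to 0.153). Both genotypes had separate times for this gene, in ASIC1a-/- by a narrow margin. Psmd14, the deubiquitinase that removes the ubiquitin chain from substrates (chr2:61711694-61800376), had 88.04, 88.4, 89.9 and 85.9 CPM at ZT13 and 84.2, 85.03, 79.3 and 78.9 CPM at ZT1 in WT (log2 fold change 0.10 ± 0.034 (SE), adjusted p = 0.0498). In ASIC1a-/- Psmd14 had 86.99, 81.8, 82.9 and 89.4 CPM at ZT13 and 80.6, 85.1, 80.5 and 81.1 CPM at ZT1 (log2 fold change 0.060, interval -0.012 to 0.131). The times were separate in WT and overlapped in ASIC1a-/-. Psmd4, a ubiquitin receptor, and Psme4 were next in WT, with adjusted p of 0.0506 and 0.0522, just beyond the threshold.

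**Figure D5:**
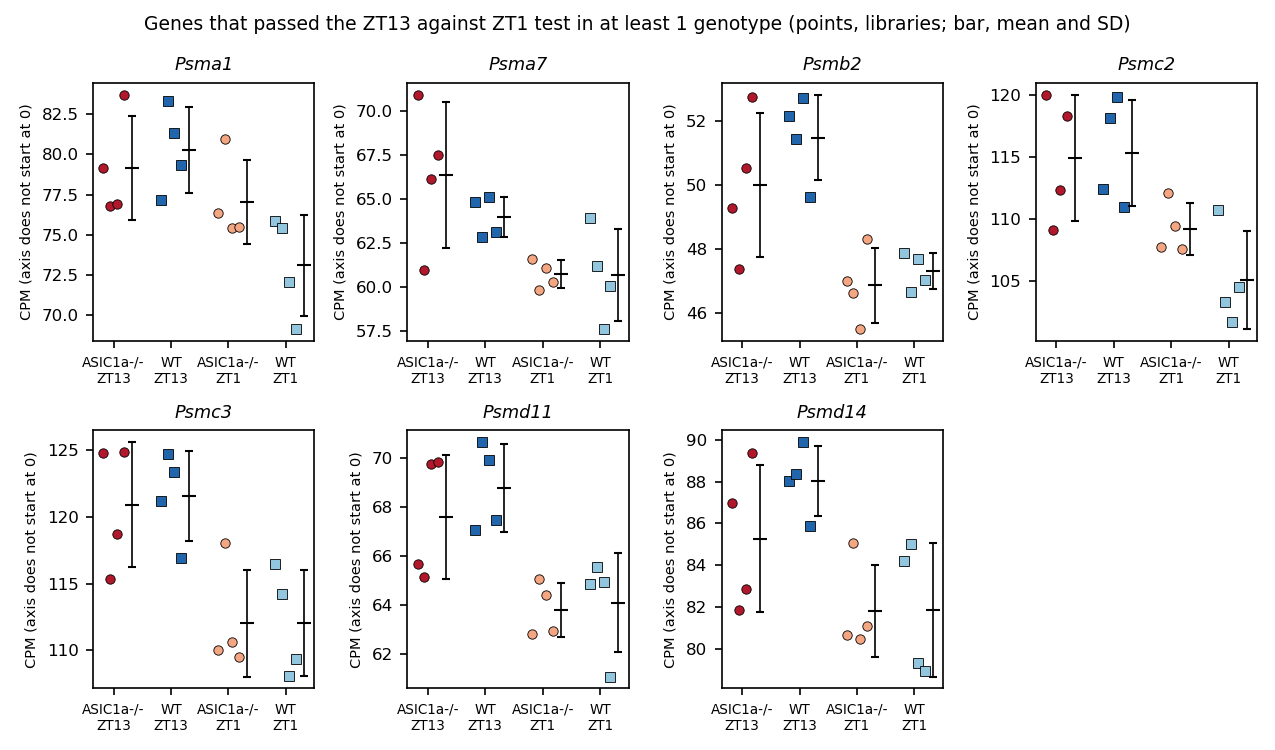
CPM of the 7 genes that passed the test of ZT13 against ZT1 in at least 1 genotype, with 1 point for each library and the mean and SD (n = 4) beside them. The axes do not start at 0. In WT, all ZT13 libraries lie above all ZT1 libraries for 6 of the 7 genes, the exception being Psma7, and in ASIC1a-/- only for Psmd11. Of all genes, 9.63% separate so in WT and 8.83% in ASIC1a-/-. The 6 were chosen because they passed the WT test, and Psma7 passed only the ASIC1a-/- test. The panels therefore do not measure a difference between genotypes.

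The standard catalytic subunits were not called between times. Psmb5 had 47.7, 45.6, 49.4 and 48.5 CPM at ZT13 and 48.2, 51.3, 48.9 and 45.2 CPM at ZT1 in ASIC1a-/-, and 45.3, 49.6, 46.3 and 47.3 CPM at ZT13 and 46.97, 46.7, 44.9 and 47.6 CPM at ZT1 in WT. Its log2 fold changes were -0.016 (interval -0.102 to 0.069) in ASIC1a-/- and 0.018 (-0.067 to 0.104) in WT. Psmb6 had log2 fold changes of -0.014 (-0.095 to 0.067) in ASIC1a-/- and 0.056 (-0.025 to 0.137) in WT. Those of Psmb7 were 0.067 (-0.030 to 0.165) and 0.089 (-0.009 to 0.187), and 405 bp of its exons overlap Nek6 on the opposite strand. The immunoproteasome gene Psmb10 had 0.022 (-0.067 to 0.110) in ASIC1a-/- and 0.072 (-0.016 to 0.160) in WT. Psmb8 and Psmb9 were too scarce to bound a change closely, with intervals in WT of -0.443 to 0.272 and -0.476 to 0.752.

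The rise did not differ detectably between genotypes. The interaction, the change in ASIC1a-/- minus the change in WT, was called for 0 of 47 members, where 0.0190% of all genes were called, and 0 members had an unadjusted p under 0.05, where 3.91% of all genes did. DESeq2 also called 0. Its median over members was -0.022, and 38 of 47 were below 0, while the median of all genes was -0.0005. With limma on log2(TPM + 1) the sign turned, with 28 of 47 members above 0 and a median of 0.011, where the median of all genes was 0.032. The members' median thus lay below that of all genes on both scales. In that limma fit 4 members had an unadjusted p under 0.05 and 0 were called. The smallest p were those of Psmd9 (interaction -0.12, interval -0.249 to 0.008), Psmg1 (0.17, -0.027 to 0.373) and Psma1 (-0.096, -0.209 to 0.016). Psmd9 had 29.9, 27.1, 28.1 and 27.8 CPM in ASIC1a-/- and 29.8, 27.2, 28.4 and 28.8 CPM in WT at ZT13. Psmg1 had 10.7, 12.8, 11.3 and 10.3 CPM in ASIC1a-/- and 12.03, 10.8, 11.95 and 11.9 CPM in WT at ZT1. A larger count of calls in WT than in ASIC1a-/- is therefore no measured difference between the genotypes. The order of the counts also depended on the scale: with limma on log2(TPM + 1), 7 members were called in ASIC1a-/- and 4 in WT. Of all 15808 genes, that fit called 971 in ASIC1a-/- and 879 in WT, higher or lower, where edgeR called 1792 and 2099. On that scale the median of all genes between times was 0.030 in ASIC1a-/- and -0.001 in WT. The summed TPM of the 47 members was 5446 to 5682 at ZT13 and 5134 to 5329 at ZT1 in ASIC1a-/-, without overlap, and 5446 to 5568 at ZT13 and 5175 to 5483 at ZT1 in WT, with overlap.

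Single libraries set much of the count. In WT it was 0 without WT ZT13 replicate 3, 1 without WT ZT1 replicate 4, 2 without WT ZT1 replicate 3, 3 without WT ZT13 replicate 1 or 2, and 13 without WT ZT1 replicate 1. In ASIC1a-/- it was 0 without any 1 of 8 libraries (ASIC1a-/- ZT13 replicates 3 and 4, WT ZT13 replicates 1 and 3, ASIC1a-/- ZT1 replicates 1 and 3, and WT ZT1 replicates 2 and 4). It was 1 without ASIC1a-/- ZT13 replicate 1 or ASIC1a-/- ZT1 replicate 2 or 4, and 4 without ASIC1a-/- ZT13 replicate 2. Calls over all genes, higher or lower, were also fewer in all of these fits. In WT they were 2099 with all 16 libraries, 1594 without WT ZT13 replicate 3 and 1394 without WT ZT1 replicate 4. Without WT ZT1 replicate 1 they were 1838. In ASIC1a-/- they were 1792 with all 16 libraries and 1304 to 1694 in the 8 fits above. The summed CPM of the 47 members was 3392 to 3637 in ASIC1a-/- and 3432 to 3608 in WT at ZT13, and 3343 to 3531 in ASIC1a-/- and 3270 to 3512 in WT at ZT1. WT ZT1 replicate 1, at 3512 CPM, lay above its 3 companions, which reached at most 3359 CPM. Without both libraries high in meningeal markers, the counts were 2 in ASIC1a-/- and 5 in WT. Of the called genes, Psmc2 stayed called in WT under 24 of 26 alternative analyses, Psma1 under 22 and Psmb2 under 21, whereas Psmd14 did so under 8 and Psmd11 under 7. The 26 include fits without 1 library of the other genotype, which is not part of the comparison, so the counts overstate stability. All losses of Psmc2, Psma1 and Psmb2 came from leaving out a WT library. Psmb2 was lost without WT ZT1 replicate 2 or 4 and without WT ZT13 replicate 1, 2 or 3. Psmc3 stayed called under 9 in ASIC1a-/- and 19 in WT, and Psma7 under 13 in ASIC1a-/-.

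Genes that work with the proteasome but bear other names were compared in the same fit, where 6.72% of all genes were called higher at ZT13 in ASIC1a-/- and 7.52% in WT. Of 11 tested partners, 1 was called higher in ASIC1a-/- and 4 in WT, and 0 lower. Of the 11, 4 were below 0 in ASIC1a-/- and 2 in WT, with medians of 0.025 in ASIC1a-/- and 0.033 in WT. Zfand2a, a stress-induced regulator of the proteasome, was called in both (log2 fold change 0.12 ± 0.030 in ASIC1a-/- and 0.16 ± 0.030 in WT, SE). Adrm1, a ubiquitin receptor of the regulatory particle, had 0.091 ± 0.034 in ASIC1a-/- (adjusted p = 0.092) and 0.19 ± 0.034 in WT (adjusted p = 0.0015 in edgeR). Zfand5, which stimulates the proteasome, and Ecpas, a proteasome-binding scaffold, were called in WT with 0.14 and 0.097, and had 0.074 and 0.038 in ASIC1a-/-, where they were not called. None of the 4 differed between genotypes by the interaction test (adjusted p = 0.9997 for each).

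Of 12 genes listed under transcription of proteasome genes, 2 were called higher in ASIC1a-/- (Ddi2 and Mafg) and 3 in WT (Ddi2, Nfe2l2 and Gclm). The calls stand beside the same 6.72% and 7.52% of all genes, and 0 of the 12 were called lower. The list also holds Nqo1, Gclm and Hmox1, enzymes that do not themselves act in the transcription of proteasome genes. Of the 12, 3 were below 0 in ASIC1a-/- and 4 in WT. Ddi2, the protease that activates Nfe2l1, had log2 fold changes of 0.15 ± 0.034 (SE, adjusted p = 0.0084) in ASIC1a-/- and 0.18 ± 0.034 (adjusted p = 0.00188) in WT. Nfe2l1 itself had -0.035 ± 0.022 and -0.024 ± 0.023 and was not called. Mafg, a small partner of such factors, had 0.14 in ASIC1a-/- and 0.093 in WT, and Nfe2l2, the oxidative stress factor, had 0.17 in ASIC1a-/- and 0.31 in WT. With limma on log2 TPM, 0 of the 12 were called in either genotype.

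The last 2 lists also stand beside 6.72% of all genes called higher in ASIC1a-/- and 7.52% in WT. Of 9 tested shuttle factors and p97 partners, Nploc4, a cofactor of the p97 unfoldase, was called in ASIC1a-/- (log2 fold change 0.097) and not in WT (0.081, adjusted p = 0.0542). Of the 9, 4 were below 0 in ASIC1a-/- and 3 in WT. Of 17 genes of antigen presentation and the interferon response, 12 were below 0 in ASIC1a-/- (median -0.069) and 8 in WT (median 0.020). Ifit3 alone was called, with 0.63 ± 0.11 in ASIC1a-/- and 0.81 ± 0.12 in WT (SE). It encodes an interferon-induced antiviral protein. The immunoproteasome genes were not called in the same comparisons. Between genotypes, 0 genes of these 4 lists were called at either time, where 0.101% of all genes were called at ZT13 and 0.0127% at ZT1. Of the 17 antigen presentation and interferon genes, 9 were above 0 in ASIC1a-/- over WT at ZT13 (median 0.014). At ZT1 15 of the 17 were above 0 (median 0.091), where 7913 of 15808 genes were.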

How the data were processed

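Hypothalamus RNA of 16 mice was sequenced, with 4 libraries in each of 4 groups taken from the labels. The authors trimmed reads with cutadapt 1.8, removed ribosomal reads, aligned to the mouse transcriptome (GRCm38, Ensembl annotation) with STAR 2.5.3a and estimated abundance with RSEM 1.2.31. The submitters' processing notes list HTSeq 0.9.1 and mm9 too. Sources differ on the RNA and library kits, and strand use in counting is not given in the sources used here. The deposited expected counts (RSEM) were rounded to whole numbers for the test. The deposited TPM values served for levels. Gene lengths were deposited too and entered no test.

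Symbols, gene types and positions came from GENCODE M21 (GRCm38). Genes over 1 CPM in at least 1 library were kept (15808). Counts were scaled by TMM and fitted with edgeR 4.0.16 (R 4.3.3), with 1 mean for each group over all 16 libraries, and compared by the quasi-likelihood F test with Benjamini-Hochberg adjustment over all genes. The threshold for a call was an adjusted p of 0.05. Printed CPM use the TMM scaling. SE is the size of the log2 fold change divided by the square root of F, and intervals are 95%. The labels name a replicate number for each library and no batch, and the authors give 4 animals for each condition. P-values therefore measure spread between mice. Alternatives used DESeq2 1.42.0 and limma 3.58.1.

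Every library's values are given for the catalytic pairs and, in each comparison, for the called members or else the 3 with the smallest p. The members, lists and rules were chosen with earlier results of these data known. The 4 pseudogenes with such names were left out, with a mean of at most 0.147 TPM, and counts could be split with them. The list of ubiquitin genes is not reported here.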

Additional observations from a re-analysis of the deposited data

Results flagged for a closer look

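In groups of 4 libraries, 7 of 88 sets of values had 1 library far from the other 3 relative to their range, and chance alone gives about 1 in 20. Psmc3 had 118 CPM in ASIC1a-/- ZT1 replicate 2, where the other 3 libraries had 109.5 to 110.6 CPM. The same library had 85.1 CPM of Psmd14, where the other 3 had 80.5 to 81.1 CPM. WT ZT1 replicate 4 had 61.1 CPM of Psmd11, below 64.9 to 65.5 CPM in its group. WT ZT1 replicate 2 had 18.7 CPM of Psmb10 and 10.8 CPM of Psmg1, below 20.3 to 20.5 and 11.9 to 12.03 CPM in its group. WT ZT1 replicate 1 had 27.4 CPM of Psmd9, above 25.6 to 25.9 CPM. The summed level of meningeal markers in ASIC1a-/- ZT13 replicate 2 was 3201 TPM, where the other 3 libraries had 786 to 898 TPM.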

How the results depend on the processing

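No comparison of genotypes and no interaction called a member under any of the alternatives run. The count of members higher at ZT13 in ASIC1a-/- (2) was 4 at an adjusted p under 0.1, 5 with scaling by library size only, 1 without a filter on low counts, 1 with filterByExpr, 0 with only the libraries compared, and 7 with limma on log2(TPM + 1) and on log2(TPM + 0.1). The median of members was then 0.087 with either pseudocount, while that of all genes was 0.030 and 0.032, against -0.006 in the edgeR fit. With these pseudocounts limma called 971 and 969 of all genes in ASIC1a-/- and 879 and 882 in WT. The edgeR fit called 1792 and 2099. In WT the count (6) was 11 at an adjusted p under 0.1, 10 with scaling by library size only and 10 with DESeq2's Wald test, and it was 4 without a filter on low counts, with filterByExpr and with limma on log2 TPM, and 5 with only the libraries compared. Leaving out 1 library gave 0 to 4 in ASIC1a-/- and 0 to 13 in WT. Calls over all genes, higher or lower, then ran between 1162 and 1827 in ASIC1a-/- and between 1320 and 2190 in WT. The causes were not tested. No called gene changed direction. The uncalled medians of members changed sign, and with limma on log2 TPM the median of all genes moved too. Over the alternatives other than leaving out 1 library, members' medians ran between -0.005 and 0.013 for the genotypes at ZT13. They ran between -0.004 and 0.030 at ZT1 and between -0.022 and 0.011 for the interaction. Leaving out 1 library gave -0.018 to 0.012 at ZT13. The shared replicate numbers did not pair the samples: correlations of same-numbered libraries ran between -0.316 and 0.217, 4 of 24 were above 0.1, and 5 of 16 libraries correlated best with their own number. A fit with the replicate number as a block gave 1 call in ASIC1a-/- and 5 in WT. Depth limits Psmb8, Psmb9, Psmc3ip and Psmg4. The alternative without both libraries high in meningeal markers was chosen after seeing the data.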
